A study of Mus musculus with 8 samples.

Results

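The kinesin motor genes were taken as every gene of the deposited table whose symbol is Kif or Kifc followed by a digit, which gave 40 of 22200 genes. They were placed by their known role into 12 kinesins of mitosis and cytokinesis, 17 of cargo transport, 6 of the cilium and centriole, and 5 others. Of the 40, 36 had a mean of at least 10 normalised reads over the libraries and were tested, among them all 12 mitotic and all 17 transport kinesins. Kif19a of the cilium class and Kif12, Kif2b and Kif26a of the others fell below that level. The symbol rule does not reach the kinesin Cenpe or Kifap3, a non-motor subunit of kinesin-2, which were read among the partners of the motors.

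The series profiled polyadenylated RNA of immortalized mouse embryonic fibroblasts, on a C57BL/6 background, that carry the genotype label TAF4-/-. TAF4 belongs to TFIID, which recruits RNA polymerase II to promoters. In 3 libraries the cells received no treatment and are labelled 12 h, in 3 they received retinoic acid (RA) for 12 h, and in 2 they received RA for 72 h. RA is a vitamin A derivative that acts through nuclear receptors. The study's methods name 1 TAF4-null line, made by removing a floxed allele, for the RA treatment, all 8 libraries share the genotype label, and nothing states that they came from separate cultures. The p-values therefore measure the spread between these libraries, which may be technical. No untreated library at 72 h was given, so RA and time in culture cannot be told apart in any comparison with 72 h.

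Kinesins are motors that use ATP hydrolysis to move along microtubules or to take them apart. Mitotic kinesins push spindle poles apart, slide and bundle the microtubules of the midzone, move chromosomes and bring the cytokinesis machinery to the cleavage plane, and many of them are made mainly from S phase to mitosis in dividing cells. Transport kinesins carry vesicles, mitochondria, mRNAs and intraflagellar particles through the cytoplasm of dividing and resting cells alike.

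Many mitotic kinesin genes carry cell cycle promoter motifs, so the windows around their start sites were read, and those of 4 mitotic kinesins and 1 transport kinesin are printed to show the letters counted. The windows are from RefSeq on GRCm38.p6 and run from 250 bases before to 50 after the annotated start, 300 bases in all, on the strand of the gene. Capitals mark TTTGAA, the core of the cell cycle genes homology region (CHR), and CCAAT, the binding letters of the factor NF-Y. On the opposite strand they appear as TTCAAA and ATTGG. Kif23 and Kif11 stand for kinesins that rose at 72 h and hold both motifs. Kif20b stands for one with 2 adjoining CHR matches, and Kif4 for a mitotic kinesin without a detected change. Kif1b stands for a transport kinesin with CCAAT letters alone. They lie at chr9:61946750-61947049 (minus strand) for Kif23, chr19:37376132-37376431 (plus) for Kif11, chr19:34922108-34922407 (plus) for Kif20b, chrX:100625815-100626114 (plus) for Kif4 and chr4:149307684-149307983 (minus) for Kif1b.
Kif23: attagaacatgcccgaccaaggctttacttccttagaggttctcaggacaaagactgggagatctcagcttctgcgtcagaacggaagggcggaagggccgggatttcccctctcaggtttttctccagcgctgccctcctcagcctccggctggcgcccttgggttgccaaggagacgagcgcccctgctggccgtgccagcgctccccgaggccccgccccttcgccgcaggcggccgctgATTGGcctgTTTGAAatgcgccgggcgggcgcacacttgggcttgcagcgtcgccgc
Kif11: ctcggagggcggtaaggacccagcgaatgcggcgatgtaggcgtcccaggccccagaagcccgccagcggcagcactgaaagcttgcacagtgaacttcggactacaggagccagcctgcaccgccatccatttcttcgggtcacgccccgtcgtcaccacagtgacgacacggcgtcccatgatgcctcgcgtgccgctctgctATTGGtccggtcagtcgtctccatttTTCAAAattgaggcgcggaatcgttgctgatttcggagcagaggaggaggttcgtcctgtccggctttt
Kif20b: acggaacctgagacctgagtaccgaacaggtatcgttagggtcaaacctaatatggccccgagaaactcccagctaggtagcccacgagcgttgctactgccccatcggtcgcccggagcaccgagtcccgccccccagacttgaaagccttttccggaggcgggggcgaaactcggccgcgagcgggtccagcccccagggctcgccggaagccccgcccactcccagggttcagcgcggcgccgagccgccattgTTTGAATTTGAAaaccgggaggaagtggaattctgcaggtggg
Kif4: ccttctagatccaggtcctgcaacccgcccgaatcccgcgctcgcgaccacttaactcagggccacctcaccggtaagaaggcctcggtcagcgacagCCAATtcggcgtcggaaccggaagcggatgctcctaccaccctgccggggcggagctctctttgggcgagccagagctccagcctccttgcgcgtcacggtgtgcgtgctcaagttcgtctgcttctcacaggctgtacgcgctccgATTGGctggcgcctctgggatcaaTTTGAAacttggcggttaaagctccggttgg
Kif1b: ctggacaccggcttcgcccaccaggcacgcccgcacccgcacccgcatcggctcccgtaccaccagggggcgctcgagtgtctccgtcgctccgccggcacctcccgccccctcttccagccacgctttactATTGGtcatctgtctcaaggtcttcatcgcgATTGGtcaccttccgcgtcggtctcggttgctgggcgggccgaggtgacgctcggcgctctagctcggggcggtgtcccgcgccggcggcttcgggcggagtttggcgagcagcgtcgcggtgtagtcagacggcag

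A window was given for 32 of the 40 kinesins, counting the first window of each gene. No window was read for the transport kinesins Kif13b, Kif21b, Kif5a, Kif5b, Kifc2 and Kifc3, for Kif19a or for Kif20a. CHR letters on either strand were present in 10 of 11 mitotic kinesin windows (90.9%), in 0 of 11 transport windows, in 1 of 5 cilium and centriole windows (Kif27) and in 1 of 5 of the others (Kif26b). Of all 17492 windows of coding genes, 2886 (16.5%) held them. CCAAT letters were present in 7 of the 11 mitotic windows (63.6%) and in 3 of the 11 transport windows (27.3%), against 39.0% of all windows. Both motifs were found together in 7 mitotic windows (63.6%) and in 6.68% of all. Kif2a, which also acts at spindle poles but was placed among the others, held neither motif. Other forms of these motifs were not searched, and matches of the 2 motifs could overlap.

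Counted with the first transcribed base as 1, the CHR letters began at 3 in Kif23, 2 in Kifc1, 4 in Kif18b, 8 and 14 in Kif20b and 20 in Kif4. They began at -17 and -215 in Kif22, -19 in Kif11, -19 and -234 in Kif15, -103 in Kif2c and -228 in Kif14. Kif18a was the mitotic kinesin whose window lacked them, and Kif20a was not read. A match is a run of letters and not a measured binding site.

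**Figure D1:**
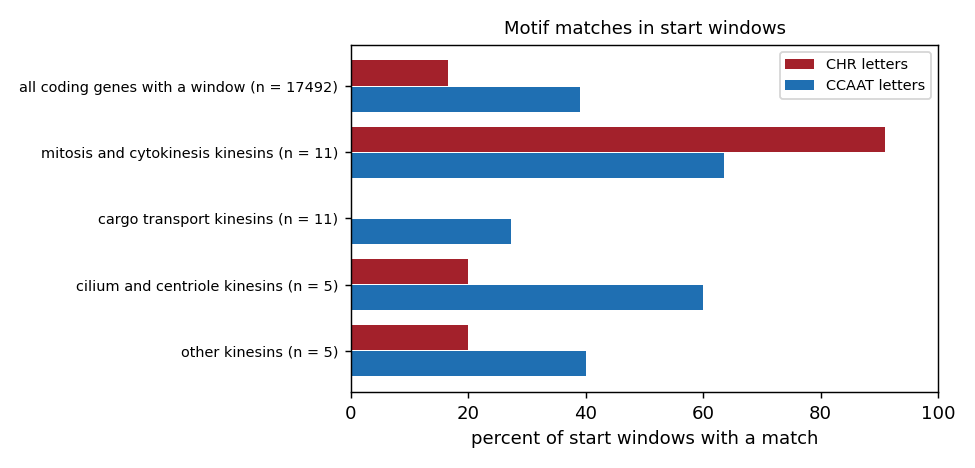
Percent of RefSeq start windows that hold the CHR or the CCAAT letters on either strand, for all coding genes with a window and for the 4 kinesin classes, with the number of windows on each label. The CHR bar reaches 90.9% in the mitotic kinesins and 0% in the transport kinesins, against 16.5% of all windows.

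All values below are quantile-normalised reads per gene, on which every library has the same distribution, from 1 to 165593 with a sum of 9442018.6, so library depths are lost. Taf4a, the gene named in the genotype label, had 983.75 to 1449.25 normalised reads in the 8 libraries labelled TAF4-/-, and gene totals do not show whether the deleted exons are among them. Of the 10 fibroblast markers, 9 had a mean of at least 10, the exception being Thy1 (1.86). Their summed level was 236495 to 257146 in untreated cells and 216589 to 222432 at 72 h. Summed markers of epithelium (21.5 to 38.1), leukocytes (63.8 to 99.0), endothelium (38.4 to 70.1) and germ cells (6.00 to 21.1) were low in all libraries, and those of neurons (1841 to 2178) came mainly from Syt1. Single markers moved at 72 h against untreated: of the fibroblast list Pdgfra (0.98) and Pdgfrb (0.51) rose and Col3a1 (-1.43) and Col1a2 (-0.47) fell, and of the neuron list Stmn2 fell from 62.2 ± 16.1 to 6.31 ± 2.39. Their part in the kinesin results was not tested. The libraries also varied within groups along 1 axis holding 50.1% of the within-group variance, which set 4 libraries (side 1: RA 72 h replicate 2, RA 12 h replicate 3 and the untreated replicates other than 3) against the other 4 (side 2). Differences within each side are given where they bear on a kinesin. The side was drawn from the spread of these same libraries. A fit with the side as a term therefore narrows that spread by construction, and its p-values can be too small.

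A transport motor held a large share of the reads of the family. Kif13b, which moves vesicles and binds the scaffold protein Dlg1, averaged 10500 normalised reads, or 1890 per kb of exon, and held from 43.4% to 54.3% of all kinesin reads of a library. Compared per kb of exon, Kif20a (229), Kif1c (219), Kif23 (187) and Kif11 (167) came next. By reads alone the order was Kif1c (1550), Kif1b (1080), Kif20a (891), Kif11 (804) and Kif23 (733). These levels are means over all libraries, so they take in the 72 h rise of the mitotic kinesins described below. The untreated means were 1756 for Kif1c, 727 for Kif11, 647 for Kif20a and 571 for Kif23, so the place of the mitotic kinesins depends on the libraries averaged. The labels describe tag libraries, in which reads need not grow with exon length, so the order per kb is uncertain. Among the remaining mitotic kinesins the level ran from 93.3 per kb for Kifc1 to 12.7 for Kif4. Of the transport motors best known from neurons, Kif1a (1.69 per kb), Kif17 (2.55) and Kif5a (4.86) were low, while Kif5c stood at 64.3 and Kif3c at 27.9.

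The comparison of RA 12 h with untreated cells asks how the family stood early in the treatment. None of the 36 tested kinesins rose or fell, with an adjusted p below 0.05 in limma taken as the threshold for both words. At an unadjusted p below 0.05, 4 were higher and 3 lower. The share of all genes at that looser cut was not counted, so those counts are not read as a result. Of all 12673 genes tested, 2.87% rose and 1.5% fell, and 1.11% rose and 0.308% fell by at least 2-fold, as 0 kinesins did. The median log2 change was 0.01 in the mitotic kinesins (range -0.23 to 0.32), 0.02 in the transport kinesins (-0.47 to 0.45) and -0.02 in all genes tested.

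In 6 kinesins the 12 h values lay apart from the untreated ones without passing the test, 4 with 12 h higher (Kif15, Kif20b, Kif3c and Kif5b) and 2 lower (Kifc2 and Kif6). Kif15, a spindle motor that can act beside Kif11, had 266.75, 246.75 and 265.125 normalised reads in untreated cells and 305.75, 305.75 and 311.375 at 12 h. Its log2 change was 0.25 ± 0.10 (SE, limma adjusted p = 0.25). Kif20b, a kinesin-6 of late cytokinesis, changed by 0.32 ± 0.13 (adjusted p = 0.236), and Kif3c, a kinesin-2 motor, by 0.45 ± 0.14 (adjusted p = 0.0932). Groups lay apart in this way in 9.42% of all genes tested with 12 h higher and in 10.6% with 12 h lower, so 4 and 2 of 36 are near or below those shares.

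Most mitotic kinesins were higher at 72 h than in both earlier groups. Of the 12, 10 rose against untreated cells and 0 fell, while of the 17 transport kinesins 1 rose (Kif3c) and 1 fell (Kif21a). Of all genes tested, 6.08% rose and 5.41% fell. The median log2 change was 0.87 in the mitotic kinesins (range -0.02 to 1.33), -0.09 in the transport kinesins (-0.80 to 0.67), 0.04 in the 5 tested kinesins of the cilium and centriole and -0.02 in all genes tested. These classes were set by role, with earlier results of these data known, and the difference between them was not tested. The counts depend on this placing. Kif21a, the fall of the transport class, is described below as a motor that restrains microtubule growth. Kif2a, which also acts at spindle poles, was kept among the others and did not pass (-0.10, adjusted p = 0.673). In 4 mitotic kinesins (Kif20a, Kifc1, Kif2c and Kif23) the rise was at least 2-fold, as it was in 2.15% of all genes. Without untreated replicate 3 or without RA 72 h replicate 2 this count was 2 (Kif20a and Kifc1).

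Against RA 12 h, which shares the 72 h libraries with the comparison above, 8 of 12 mitotic kinesins rose and 0 fell, and of the transport kinesins 0 rose and Kif21a fell. Both directions held 2.92% of all genes tested. The rise was at least 2-fold in Kif20a, Kif2c and Kif14, as it was in 0.765% of all genes. The median was 0.81 in the mitotic kinesins (0.21 to 1.34), 0.11 in the transport kinesins and -0.00 in all genes tested. The changes of the 36 kinesins in the 3 comparisons show these classes side by side.

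**Figure D2:**
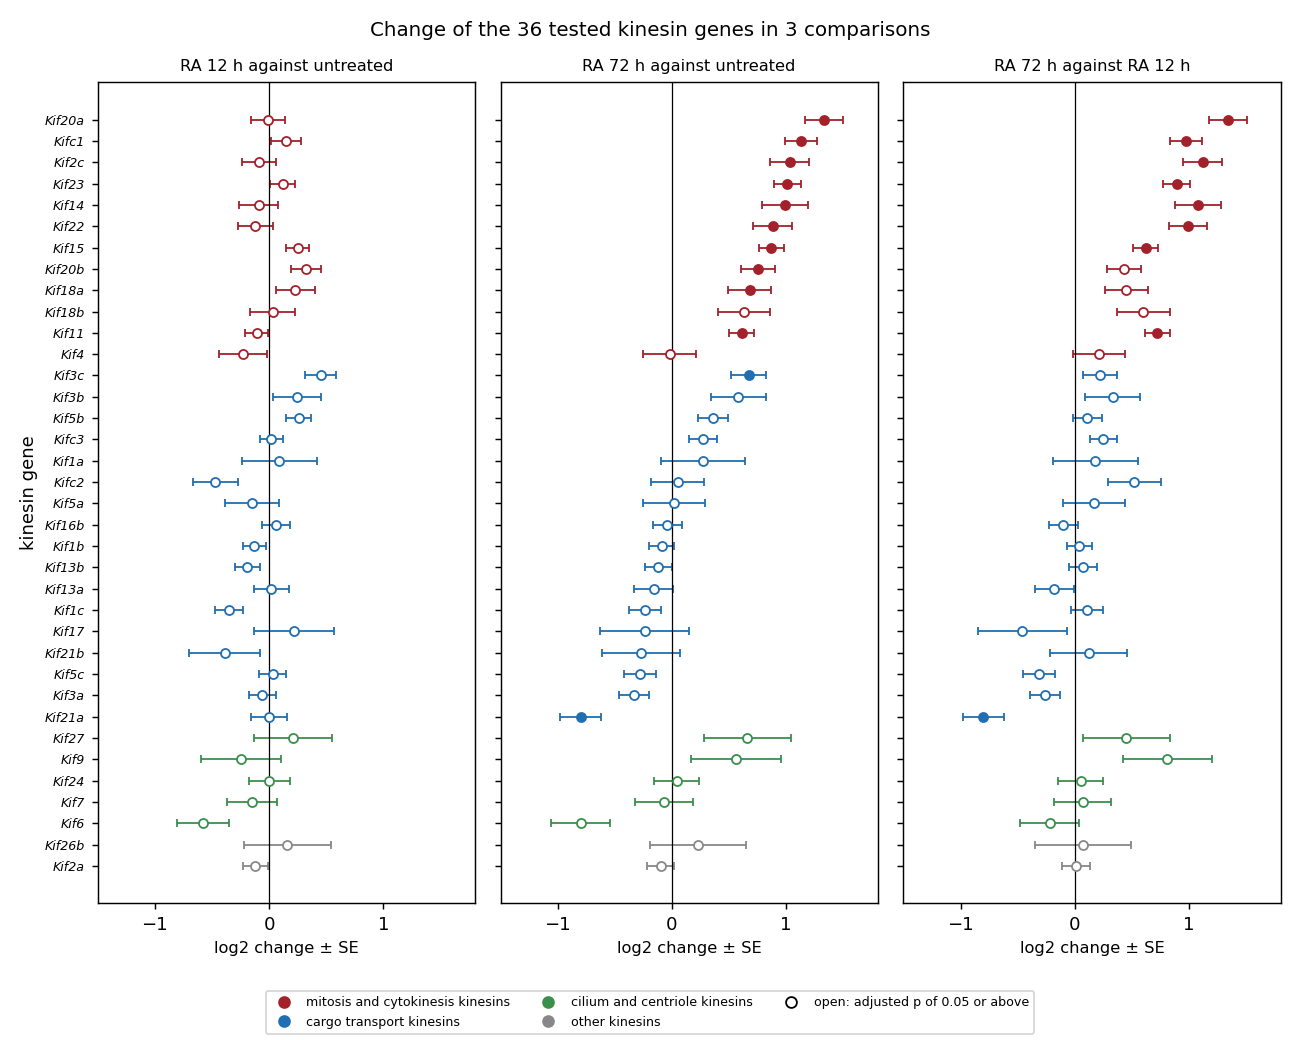
Log2 change of each tested kinesin, with its standard error, in the 3 comparisons. Rows are genes ordered by class and by their change at 72 h against untreated, and filled points have an adjusted p below 0.05. At 12 h all points are open, and at 72 h 10 of the 12 mitotic kinesins (red) are filled on the right of 0 against untreated. Of the 17 transport kinesins (blue), 1 is filled there on the right (Kif3c) and 1 on the left (Kif21a).

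Averaged over its 12 genes on the log2 scale, relative to the untreated mean, the mitotic class stood at 0.00, 0.10 and -0.10 in the untreated libraries. It stood at 0.02, 0.07 and 0.03 in the 12 h libraries and at 0.77 and 0.88 in the 72 h libraries. Both 72 h libraries were thus far above all 6 others. In 10 of the 12 mitotic kinesins the untreated and 72 h values did not overlap, with 72 h higher, as in 17.2% of all genes tested. The 17 transport kinesins ranged from -0.07 to 0.05 over the 8 libraries, with -0.01 and -0.03 at 72 h. Within both sides of the shared axis, 11 of the 12 mitotic kinesins were higher at 72 h than untreated, the exception being Kif4 (0.02 and -0.28). In a bulk sample, more cells holding a transcript and more transcript per cell cannot be told apart.

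The kinesin-6 motors, which bundle midzone microtubules and bring signalling proteins to the cleavage furrow, included the largest rise of the family. Kif20a (ENSMUSG00000003779, mm9 chromosome 18, 34784278 to 34792919), needed to place the chromosomal passenger complex at the midzone, had 652.875, 748.625 and 538.75 normalised reads in untreated cells. It had 544, 647.875 and 728.375 at 12 h, and 1368.13 and 1900.38 at 72 h. The 72 h libraries were both above all others, and the 12 h values lay among the untreated ones. The mean went from 647 ± 105 (SD, n = 3) to 1634 ± 376 (n = 2), and the fitted log2 change was 1.33 ± 0.17 (limma adjusted p = 0.000208), or 2.51-fold. It was 1.44 within side 1 and 1.34 within side 2, and 1.22% of tested genes had a larger change. The 3′ part of Kif20a overlaps Cdc23 on the other strand in the annotation, and strand use in the counting is not given in the sources used here. Cdc23 went from 188 ± 40.3 to 220 ± 30.1 (adjusted p = 0.458).

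Kif23 (ENSMUSG00000032254, mm9 chromosome 9, 61765087 to 61794606) is the motor of centralspindlin, the complex that builds the midzone with Racgap1. It had 554.75, 645.25 and 513.375 normalised reads untreated, 661.125, 581.375 and 611 at 12 h, and 1109.5 and 1184.38 at 72 h. The values of both 72 h libraries stood apart from all 6 others. The log2 change against untreated was 1.01 ± 0.12 (adjusted p = 0.000114), 2.01-fold, and against 12 h it was 0.89 ± 0.12 (adjusted p = 0.000748).

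Kif20b (ENSMUSG00000024795, mm9 chromosome 19, 34996848 to 35050221) was the smallest riser of the 3 kinesin-6 genes. It had 119.375, 135.25 and 111 normalised reads untreated, 160.5, 145.125 and 149.75 at 12 h, and 202.125 and 206.75 at 72 h. The 3 groups did not overlap, with the 12 h libraries between the others. Its rise of 0.75 ± 0.15 against untreated passed (adjusted p = 0.00426), and its change of 0.43 ± 0.15 against 12 h did not (adjusted p = 0.112), except with the side as a term (0.42, adjusted p = 0.0424).

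The kinesins that set spindle pole separation and microtubule crosslinking rose together with these. Kif11 (ENSMUSG00000012443, mm9 chromosome 19, 37450893 to 37496349), known as Eg5, pushes the poles apart and is the target of monastrol. Its values were 713.875, 734.625 and 732.875 normalised reads untreated, 624.125, 728.375 and 677.75 at 12 h, and 1133.5 and 1090.13 at 72 h. The untreated libraries spread by no more than 11.5 (SD), and both 72 h libraries were above all others. The change was 0.61 ± 0.11 against untreated (adjusted p = 0.00213) and 0.72 ± 0.11 against 12 h (adjusted p = 0.00145), the smallest of the 10 rises against untreated.

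Kif15 (ENSMUSG00000036768, mm9 chromosome 9, 122860199 to 122927843) had 473.25 normalised reads in both 72 h libraries, a tie that quantile normalisation can give. Its SD of 0.0 there therefore understates its error. With the untreated and 12 h values given above, its 3 groups did not overlap. The log2 change was 0.87 ± 0.11 against untreated (adjusted p = 0.000239) and 0.62 ± 0.11 against 12 h (adjusted p = 0.00601), and the latter did not pass once either 72 h library was left out (0.62 in both cases).

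Kifc1 (ENSMUSG00000079553, mm9 chromosome 17, 34012611 to 34027606) moves toward microtubule minus ends and focuses the spindle poles. It had 221, 257.75 and 232.25 normalised reads untreated, 302.75, 247.25 and 242.75 at 12 h, and 565.625 and 473.75 at 72 h. All 6 earlier values lay below both 72 h values. It rose by 1.13 ± 0.14 against untreated (adjusted p = 0.000173), 2.18-fold, and by 0.97 ± 0.14 against 12 h (adjusted p = 0.00129). Kifc5b, a close copy of Kifc1 that the table lists under a clone name, went from 144 ± 13.2 untreated to 247 ± 7.42 at 72 h, a rise of 0.77 ± 0.15 (adjusted p = 0.00402). How reads were divided between these copies is not given in the sources used here, so the level of each is uncertain.

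**Figure D3:**
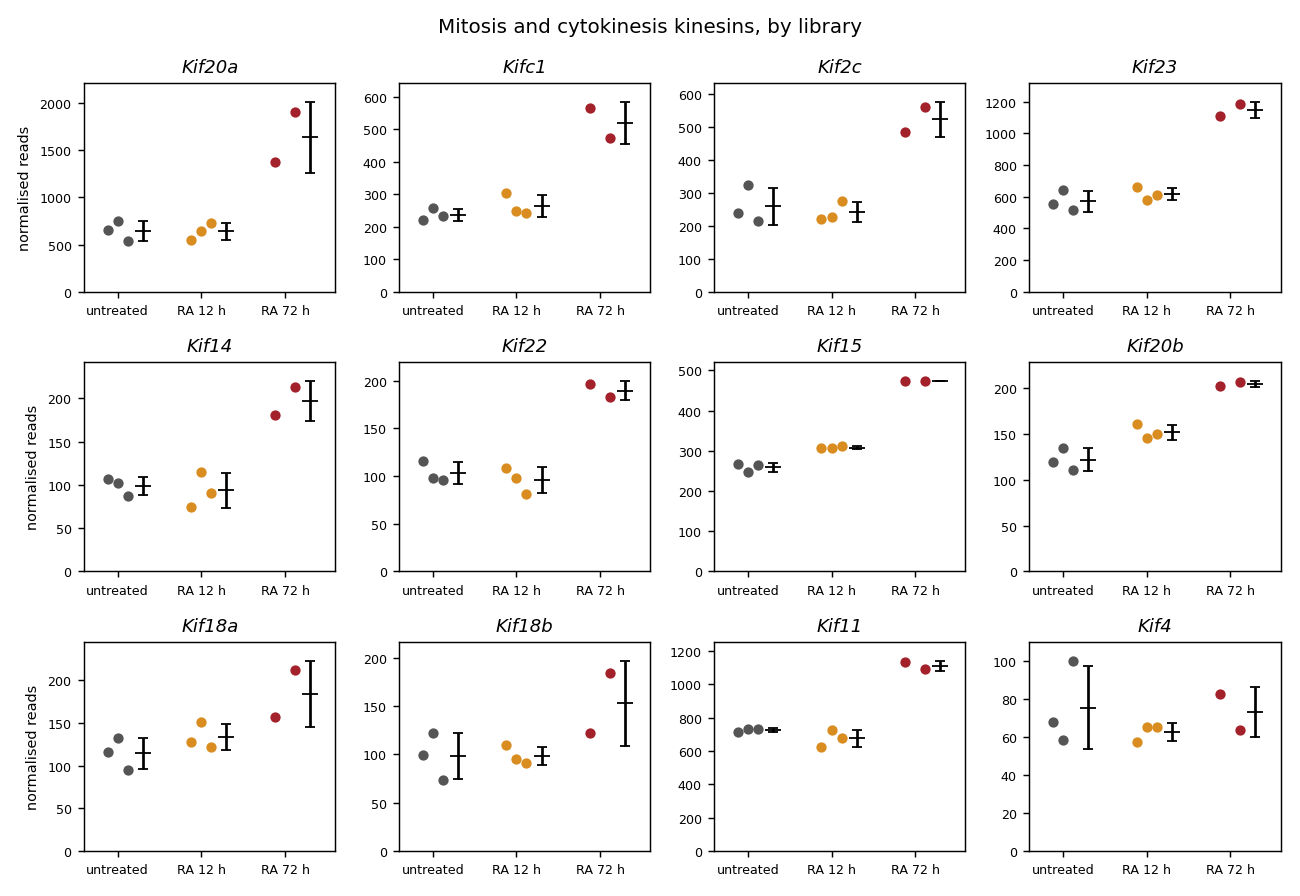
Normalised reads of the 12 mitosis and cytokinesis kinesins in each library, with 1 panel per gene and a linear axis from 0. Points are libraries and bars give the mean ± SD of the 3 untreated, 3 RA 12 h and 2 RA 72 h libraries. In 10 panels both 72 h points lie above all untreated points, and in Kif18b and Kif4 the groups overlap.

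Among the kinesins that act on chromosomes and on microtubule ends, Kif2c, Kif22 and Kif18a rose, and Kif18b and Kif4 did not pass. Kif2c (ENSMUSG00000028678, mm9 chromosome 4, 116832244 to 116855244), known as MCAK, takes microtubules apart at centromeres. It had 238, 322.375 and 215.625 normalised reads untreated, 220.25, 226.375 and 275.75 at 12 h, and 483.625 and 559.625 at 72 h. Both 72 h libraries were above all others, although untreated replicate 2 was well above the other untreated libraries. The change was 1.03 ± 0.17 against untreated (adjusted p = 0.00157), 2.04-fold, and 1.12 ± 0.17 against 12 h (adjusted p = 0.00189).

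Kif22 (ENSMUSG00000030677, mm9 chromosome 7, 134171246 to 134185934) is a chromokinesin, a motor that binds DNA and pushes chromosome arms outward. It had 115.875, 97.5 and 95.875 normalised reads untreated, 108.125, 97.375 and 80.75 at 12 h, and 196.5 and 182.5 at 72 h. Both later libraries stood apart from the other 6. Its change was 0.88 ± 0.17 against untreated (adjusted p = 0.0044) and 0.99 ± 0.17 against 12 h (adjusted p = 0.00417), and neither passed without RA 72 h replicate 1, where they were 0.82 and 0.94. The processed pseudogene Kif22-ps averaged 1.62 at 72 h, close to the floor of the table.

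Kif18a (ENSMUSG00000027115, mm9 chromosome 2, 109120895 to 109181904), which dampens chromosome movement at the metaphase plate, had the highest adjusted p of the 10 that rose. It had 116.25, 132.125 and 95.375 normalised reads untreated, 127.75, 150.75 and 122.375 at 12 h, and 156.875 and 211.875 at 72 h. The 72 h libraries were above the rest, but far apart from each other. The rise of 0.68 ± 0.19 against untreated (adjusted p = 0.0316) did not pass without RA 72 h replicate 2 (0.46), without untreated replicate 1 (0.69) or without untreated replicate 3 (0.55). The change of 0.45 ± 0.19 against 12 h did not pass (adjusted p = 0.204). Its first bases overlap Mettl15 (listed as Mett5d1) on the other strand, which went from 161 ± 32.7 to 241 ± 24.1 (0.59 ± 0.18, adjusted p = 0.0492).

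The related Kif18b (ENSMUSG00000051378, mm9 chromosome 11, 102766843 to 102786438), which controls the length of astral microtubules, had 99, 122.375 and 74 normalised reads untreated, 109.375, 95.75 and 91.375 at 12 h, and 122 and 184.375 at 72 h. The untreated and 72 h groups overlapped, since RA 72 h replicate 1 lay just under the highest untreated library. Its difference was 0.63 ± 0.23 against untreated (adjusted p = 0.101) and 0.60 ± 0.23 against 12 h (adjusted p = 0.158). Without untreated replicate 2 it passed against untreated, with 0.80. With the side as a term it passed against untreated (0.68, adjusted p = 0.00846) and against 12 h (0.55, adjusted p = 0.0439). Those p-values can be too small, as the side was drawn from these libraries.

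Kif4 (ENSMUSG00000034311, mm9 chromosome X, 97821076 to 97922553), a chromokinesin that also limits the length of midzone microtubules, had no detectable change. It had 68.125, 58.375 and 100.375 normalised reads untreated, 57.25, 65.625 and 65.125 at 12 h, and 82.625 and 64 at 72 h. All 3 groups overlapped, and untreated replicate 3 was the highest of the 8. The difference at 72 h was -0.02 ± 0.23 against untreated (adjusted p = 0.975) and 0.21 ± 0.23 against 12 h (adjusted p = 0.699). Kif4 had the lowest level per kb of exon among the mitotic kinesins, and it holds the CHR and CCAAT letters printed above. Its 5′ end overlaps Pdzd11 on the other strand, at 1184 ± 17.2 untreated and 1355 ± 5.30 at 72 h, and its copy Kif4-ps was not analysed here.

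Kif14 (ENSMUSG00000041498, mm9 chromosome 1, 138364535 to 138428088), which brings citron kinase to the midbody in cytokinesis, had 106.375, 102.625 and 86.625 normalised reads untreated. It had 74.375, 115.25 and 90.875 at 12 h, and 180.625 and 213.125 at 72 h. Both 72 h libraries were above all 6 others. Its rise was 0.99 ± 0.20 against untreated (adjusted p = 0.0046), 1.99-fold, and 1.08 ± 0.20 against 12 h (adjusted p = 0.0053). Neither passed without RA 72 h replicate 2, where they were 0.87 and 0.97.

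Of the 17 transport kinesins, 15 passed in neither direction at 72 h against untreated. The values of these 2 groups lay apart in 4 with 72 h higher and in 3 with 72 h lower, and the like held in 17.2% and 19.4% of all genes tested. Kif13b had 11671.6, 11560.3 and 10354.4 normalised reads untreated, 9451.25, 9658.5 and 10354.4 at 12 h, and 9353.75 and 11306.4 at 72 h. The 72 h libraries lay on both sides of untreated replicate 3, and the difference against untreated was -0.12 ± 0.12 (adjusted p = 0.606). Kif1c, a motor for dense core vesicles and for integrins, went from 1756 ± 214 to 1380 ± 169 at 12 h and 1484 ± 133 at 72 h. Its difference at 12 h was -0.35 ± 0.12 (adjusted p = 0.155), and it passed without untreated replicate 3, with -0.45. Kif1b, which carries mitochondria and synaptic vesicle precursors, had 1138 ± 82.1, 1039 ± 75.4 and 1066 ± 47.4 in the 3 groups and a difference at 72 h of -0.09 ± 0.11 (adjusted p = 0.673).

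The transport kinesin that rose was Kif3c (ENSMUSG00000020668, mm9 chromosome 12, 3365132 to 3406494), a kinesin-2 motor that pairs with Kif3a. It had 145.375, 161.25 and 142.875 normalised reads untreated, 180.625, 210.25 and 225.625 at 12 h, and 215.375 and 264 at 72 h. Both RA groups lay above the untreated libraries and overlapped each other. It rose by 0.67 ± 0.15 at 72 h against untreated (adjusted p = 0.011), a change that was 0.52 and did not pass without RA 72 h replicate 2. Its partner Kif3a differed by -0.33 ± 0.13 (adjusted p = 0.139), Kif3b, the other partner of Kif3a, by 0.58 ± 0.24 (adjusted p = 0.155), and their shared non-motor subunit Kifap3 by -0.06 ± 0.13 (adjusted p = 0.826). The gene 1110002L01Rik overlaps Kif3c on the other strand and had 31.3 ± 6.14 untreated and 32.1 ± 3.18 at 72 h.

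Kif21a (ENSMUSG00000022629, mm9 chromosome 15, 90763707 to 90880382), a kinesin-4 motor that restrains microtubule growth at the cell cortex, was the kinesin that fell. It had 239.125, 158.25 and 224.25 normalised reads untreated, 214.875, 211.5 and 185.375 at 12 h, and 115.75 and 117.625 at 72 h. Both 72 h libraries were below all others, and untreated replicate 2 was the lowest of the rest. It fell by 0.80 on the log2 scale against untreated (SE 0.18, adjusted p = 0.00914) and by the same against 12 h (SE 0.18, adjusted p = 0.0174). Neither fall passed without RA 72 h replicate 1 (-0.79 in both) or without RA 72 h replicate 2 (-0.81 in both), and the one against 12 h did not pass without RA 12 h replicate 1 (-0.76) or 2 (-0.77).

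Conventional kinesin, the kinesin-1 heavy chains that carry vesicles and organelles with their light chains, did not change by the test. Kif5b had 396.5, 337.75 and 385.25 normalised reads untreated, 432.625, 477.75 and 427.75 at 12 h, and 520.375 and 442.125 at 72 h. The RA libraries were all above the untreated ones, with a difference at 72 h of 0.36 ± 0.13 (adjusted p = 0.0899). Kif5c differed by -0.28 at 72 h (adjusted p = 0.233) and Kif5a by 0.02. Kifc3, a minus-end motor, differed by 0.27 (adjusted p = 0.173). The remaining transport kinesins, Kif13a, Kif16b, Kif17, Kif1a, Kif21b and Kifc2, lay between -0.27 and 0.27 at 72 h against untreated.

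**Figure D4:**
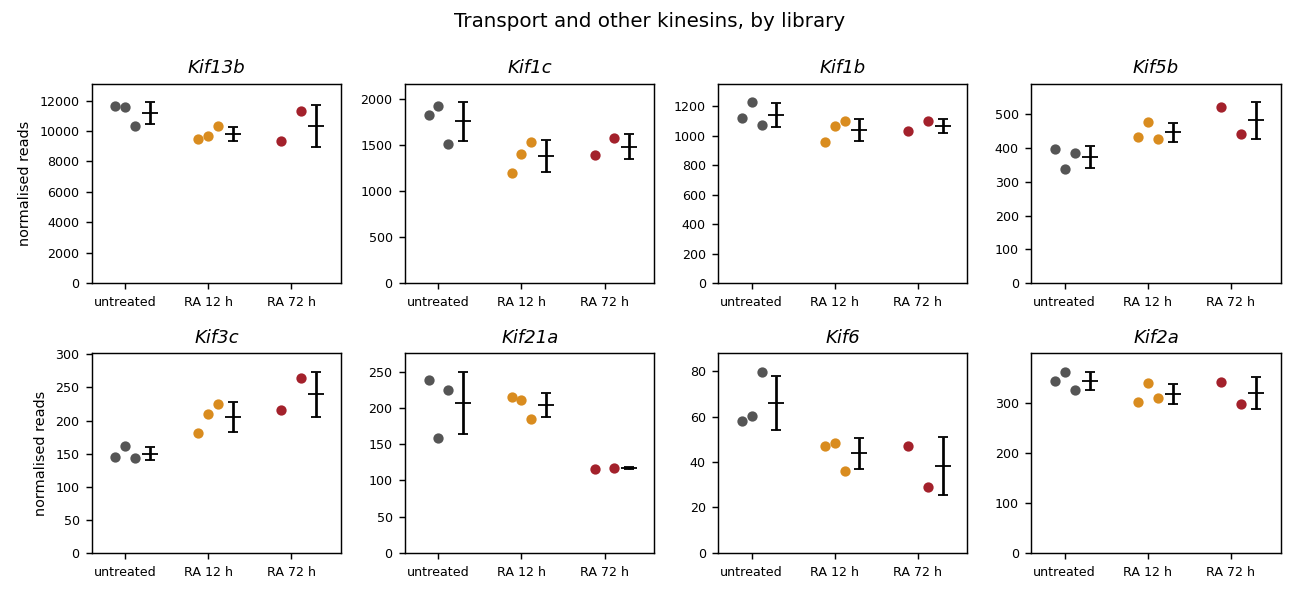
Normalised reads of 6 transport kinesins (Kif13b, Kif1c, Kif1b, Kif5b, Kif3c and Kif21a) and of Kif6 and Kif2a in each library, 1 panel per gene on a linear axis from 0. Points are libraries and bars give the mean ± SD of 3, 3 and 2 libraries. Kif3c is above the untreated points in both RA groups, and Kif21a is below all other points at 72 h. Kif6 has 66.1 ± 12.0 untreated and 38.1 ± 12.7 at 72 h, a difference that did not pass in the main fit. It passed with the side as a term and with the gene-body background subtracted, which took both 72 h values to 0.

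Of the 5 tested kinesins of the cilium and centriole, 0 rose and 0 fell by limma in each comparison, and at an unadjusted p below 0.05 Kif6 was lower at both times. Kif7, a regulator of Hedgehog signalling at the cilium tip, differed by -0.07 at 72 h (adjusted p = 0.895) and Kif24, which acts at the mother centriole, by 0.04 (adjusted p = 0.93). Kif27 differed by 0.66 ± 0.38 (adjusted p = 0.323) and Kif9 by 0.56 (adjusted p = 0.427), both near the low end of the tested range. Kif6 had 58.125, 60.375 and 79.875 normalised reads untreated, 47.125, 48.5 and 35.875 at 12 h, and 47.125 and 29.125 at 72 h. All RA libraries were below the untreated ones, by -0.80 ± 0.26 at 72 h (adjusted p = 0.0625). The 72 h difference passed with the side as a term (-0.88, adjusted p = 0.00196) and with the gene-body background described below subtracted (-5.03, adjusted p = 0.000516). Subtraction stopped at 0 and took both 72 h values of Kif6 there, so the size of -5.03 is set by that floor. Without RA 72 h replicate 1, which leaves 1 library at 72 h, the difference was -1.14. Reads spread evenly over gene bodies, taken as the lower quartile of reads per Mb in genes of at least 100000 bases, would make up 76.1% of the mean of Kif6, whose gene spans 295 kb. The same share was 80.8% for Kif27 and for Kif1a, 57.9% for Kif17, 41.1% for Kif9 and 305% for Kif26b, whose value is thus below that background. In the 12 mitotic kinesins the share was from 0.127% (Kif20a) to 19% (Kif4).

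Kif2a, a microtubule depolymerase of spindle poles and neurons that was kept among the others, differed by -0.10 at 72 h (adjusted p = 0.673). Its relative Kif2c rose 2.04-fold, as given above. Kif26b had 8.375, 16.5 and 24.875 normalised reads in the untreated libraries alone, and its difference at 72 h was 0.23 (adjusted p = 0.799).

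The partners of the mitotic kinesins were read from a list of spindle and midzone genes. Of 19 tested spindle and midzone genes, such as Racgap1, Prc1, Aurkb and Tpx2, 18 rose at 72 h against untreated and 0 fell, with a median of 0.80, where 6.08% of all genes tested rose and 5.41% fell. In RA 12 h against untreated 0 rose and 0 fell by limma. At an unadjusted p below 0.05, 2 were higher and 1 lower, a cut not counted over all genes. The largest rise was that of Hmmr, a spindle assembly factor, from 65.2 ± 11.9 to 147 ± 17.5 (1.17 ± 0.20, adjusted p = 0.00203). Against 12 h, where 2.92% of all genes rose, 17 rose, led by Plk1, a kinase of mitotic entry, with 14, 11.25 and 7.75 normalised reads at 12 h and 25.25 and 38.75 at 72 h (1.46 ± 0.36, adjusted p = 0.0292). Plk1 itself did not pass against untreated (0.68 ± 0.36, adjusted p = 0.279). Cenpe, the kinetochore kinesin that the symbol rule leaves out and that is named here after its values were seen, had 570 ± 48.8, 585 ± 61.0 and 1237 ± 53.6 normalised reads in the 3 groups. It rose by 1.12 ± 0.12 against untreated (adjusted p = 5.26e-05).

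The partners of the transport kinesins and the other parts of the microtubule system were counted against the same shares of all genes at 72 h, 6.08% rising and 5.41% falling. Of 13 kinesin light chains and cargo adaptors tested, 0 rose and 1 fell at 72 h against untreated, with a median of -0.15. The one that fell was Klc3, a kinesin light chain, from 109 ± 18.1 to 63.4 ± 17.0 (-0.78 ± 0.21, adjusted p = 0.0296). Of 23 genes of cytoplasmic dynein and dynactin, the minus-end motor complex, 2 rose and 1 fell, near those shares, with a median of 0.02. Dynlt3, a dynein light chain, rose most (0.79 ± 0.16, adjusted p = 0.0048), and Ndel1, a dynein regulator, fell (-0.42 ± 0.13, adjusted p = 0.0497). Against 12 h, where 2.92% of all genes rose, 1 rose, the mitotic dynein regulator Nde1 (0.68 ± 0.13, adjusted p = 0.00707).

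Of 14 tubulin genes, which encode the track itself, 3 rose and 1 fell at 72 h against untreated, where 6.08% and 5.41% of all genes did, with a median of 0.32. Tubb2c, a widely expressed beta tubulin, rose most, from 5849 ± 994 to 9670 ± 1380 (0.73 ± 0.16, adjusted p = 0.00734). It was also the tubulin that rose against 12 h, where 2.92% of all genes did (0.87 ± 0.16, adjusted p = 0.00506). Tuba4a went from 1108 ± 57.1 to 842 ± 159 (-0.41 ± 0.12), with an adjusted p just under the threshold that rounds to 0.05.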

How the data were processed

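Libraries were grouped by the treatment and time labels. The authors deposited 1 table of normalised reads per Ensembl gene, counted on mm9 and quantile normalised: the sorted values of the 8 columns differed at 0 ranks and 100% of the values below 1000 were multiples of 0.125. These values are not counts. 1 line without a gene was left out, and the authors' columns of group averages and log2 ratios were not used. The labels describe DpnII tag libraries, while the study's methods describe fragmented RNA aligned with Tophat, counted with Cufflinks. The design text counts 7 samples where 8 are listed, and the titles carry cl1, close to the study's name for its TAF4-expressing line. The study's methods give another time than 72 h, while its results describe RA for 72 h. The labels were followed.

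Values were taken as log2(value + 1), and the 12673 genes averaging 10 or more were tested in 1 limma fit of the 3 groups (limma 3.58.1, R 4.3.3) with a variance trend. P-values are two-sided and Benjamini-Hochberg adjusted over all genes tested in each comparison. Fold changes are on the log2(value + 1) scale. The fit was tested on simulated data with independent noise in each library and changes larger than those fitted for the kinesins. The shared within-group axis was not simulated, so that test does not cover it. Coordinates are 1-based on mm9, in which 21465 identifiers (96.69%) were found, and levels per kb use the union of annotated exons. The members and gene lists were chosen with earlier results of these data known. Named are all kinesins that passed in any comparison, the 3 highest others of each class, those below the filter, and of each partner list the largest rise and fall. Other kinesins account for the rest of the family. Alternatives were other pseudocounts, filters and fits, leaving out each library, the side of the within-group axis as a term, centring, and, chosen after seeing the data, subtraction of the gene-body background.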

Additional observations from a re-analysis of the deposited data

How the results depend on the processing

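In the kinesins that passed, no alternative reversed a direction. Counts of kinesins passing against untreated at 72 h (12) lay between 8 and 16 over all alternatives, and between 8 and 13 with 1 library left out; the lowest was without RA 72 h replicate 2. Against 12 h the count was 9, and 6 to 9 with 1 library left out. The count passing at 2-fold or more, 4 against untreated and 3 against 12 h, was 2 to 5 and 3 to 4 with 1 library left out, and 5 against 12 h after the gene-body background was subtracted, which added Kif22 and Kif6. At 12 h against untreated, 0 kinesins passed, and 0 to 1 with 1 library left out (Kif1c without untreated replicate 3). With the side of the within-group axis as a term it was 2 (Kif3c and Kif6), and with the background subtracted 1, Kif6, which also passed at 2-fold. The cause of these shifts was not tested. The share of all genes passing was not counted under these alternatives or in the blocked fit below. A shift in a count therefore cannot be read as particular to the kinesins. After subtraction Kif6 was at or near 0 in the RA libraries, so its change there depends on that floor. Of single kinesins, Kif18a against untreated at 72 h did not pass in 8 alternatives, among them the fit of those 2 groups alone (0.68), and Kif21a against 12 h in 7. Centring on the median left the counts at 0, 12 and 9.

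Replicate numbers are shared by the groups but did not pair the libraries: correlations of same-numbered deviations ran from -0.474 to 0.42, and not every library agreed best with its own number. Blocked on that number, 0, 11 and 8 kinesins passed in the 3 comparisons, and 0, 3 and 3 at 2-fold or more. Quantile normalisation removed the library depths, so no counting error can be given, and with 2 libraries at 72 h the spread there is borrowed from the other groups.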
